A study of Mus musculus with 2 samples.

Results

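The miRNAs described here are miR-378a and its relative miR-378d, miR-103, miR-107 and miR-33, a set known mostly from genes of energy and lipid metabolism that carry them in their introns. They were measured by miRNA high-throughput sequencing of E9.5 WT mouse hearts, in 2 libraries of 1 group. The members were every precursor row whose name was miR-378a, miR-378b, miR-378c, miR-378d, miR-103, miR-107 or miR-33, without regard to copy number or arm. The rule found 7 entries among the 620 entries of both tables, 7 of 568 in replicate 1 and 7 of 523 in replicate 2. An entry is 1 precursor (hairpin) as listed by miRDeep2, a program that scores reads on miRNA hairpins. Of the 7 names in the rule, 4 had at least 1 entry. MiR-103 had 3 entries, miR-107 had 2, and miR-378a and miR-378d had 1 each. For miR-33, miR-378b and miR-378c the rule found no row, and they are not analysed here beyond the annotation and sequence of miR-33.

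Both libraries came from total RNA of whole hearts of C57BL/6 embryos, wild type, at embryonic day 9.5, sequenced as single-end reads of 50 nt. There was no mutant, other stage or other tissue among these libraries, so that no conditions could be compared. The labels do not say whether the replicates were separate pools of embryos, so their spread may be technical. Cell types were not separated, and fewer cells of a type cannot be told apart from less RNA per cell.

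A miRNA lying in an intron on the strand of its host gene can be cut out of the host transcript, which ties its production to that gene. Ppargc1b, the host of miR-378a, encodes a coactivator of nuclear receptors that raises mitochondrial gene expression, and miR-378 is known for roles in muscle and in mitochondrial metabolism. The Pank genes, which carry miR-103 and miR-107, encode pantothenate kinases, the rate-limiting enzymes of coenzyme A synthesis, and miR-103 and miR-107 are known for effects on insulin sensitivity and on Dicer. Srebf2, the host of miR-33, encodes a transcription factor that drives cholesterol synthesis and uptake, and miR-33 is known to repress the cholesterol exporter Abca1 and genes of fatty acid oxidation.

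The mature sequences of miR-103 and miR-107 are shown first, because they explain which reads the entries can and cannot tell apart. The sequences are those of RefSeq (build GRCm38.p6), 5′ to 3′, with the seed (bases 2 to 8, the part that pairs with most target sites) in capitals.
miR-103-3p: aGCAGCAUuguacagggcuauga
miR-107-3p: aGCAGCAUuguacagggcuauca
miR-378d: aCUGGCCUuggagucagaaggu
miR-33-5p: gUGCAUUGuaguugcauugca
MiR-103-3p and miR-107-3p share their seed and differ by 1 substitution, G22C, with positions counted from 1 at the 5′ end and the base of miR-103-3p first. Of 388 different mature sequences listed in both replicates, these 2 were the only ones with that seed. MiR-378d was alone with its seed, and 0 listed sequences had the seed of miR-33-5p. The mature sequences in the tables equalled those of RefSeq for miR-103-3p and miR-107-3p, whereas that of miR-378d was 21 nt in the tables and 22 nt in RefSeq. MiR-378d and miR-378a-3p, compared over 21 bases, differed at 1 base, which lies in the seed.

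The mature miR-103-3p sequence occurs at 2 places in the genome (NCBIM37, the assembly that mm9 names), while those of miR-107-3p, miR-378a-3p and miR-378d occur at 1 place each. The genomic sequences at the Pank loci are shown with the 6 bases after the mature part in capitals, because only those bases (or bases before the mature part) can assign a miR-103-3p read to 1 of its 2 genes.
miR-103-1 (Pank3, chr11:35595949-35595971, plus strand, mature part): agcagcauuguacagggcuaugaAGGCAU
miR-103-2 (Pank2, chr2:131113839-131113861, plus strand, mature part): agcagcauuguacagggcuaugaAAGAAC
miR-107 (Pank1, chr19:34895190-34895212, minus strand, mature part): agcagcauuguacagggcuaucaAAGCAC
The coordinates cover the lower-case part. After the mature part, both miR-103 genes go on with the same base, and the next base is the first that differs. Reads of the mature part alone therefore match both genes.

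The levels of the members spanned nearly 3 orders of magnitude, with miR-378a-3p at the top, 712-fold and 953-fold above miR-378d in the same library. The mature reads of miR-378a-3p numbered 102578 and 100050 in replicates 1 and 2, 2.076% and 2.082% of all mature reads (mean 2.079% ± 0.004, SD, n = 2). It ranked 11 among the 471 entries listed in both replicates, and 9 of 388 when each mature sequence was ranked once by its highest entry. Such repeats arise because several entries can carry the same mature sequence. For scale, the highest entry of miR-1a, the leading miRNA of heart muscle, held 4.80 times as many reads as miR-378a-3p in replicate 1 and 5.04 times in replicate 2.

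MiR-103-3p was represented by the miR-103-2 entry with 18011 and 16602 mature reads and by the miR-103-1 entry with 17770 and 16420. The shares were 0.364% and 0.345% for miR-103-2 (mean 0.355% ± 0.013, SD, n = 2) and 0.360% and 0.342% for miR-103-1 (mean 0.351% ± 0.013, SD, n = 2), at ranks 48 and 49. In both entries replicate 1 was the higher library. The miR-103-2 entry exceeded that of miR-103-1 by 241 reads in the first library and 182 in the other, or 1.34% and 1.10% of its reads. Since the mature sequence is the same, these can be the same reads counted at both genes, and the tables do not tell how much of miR-103-3p came from Pank2 and how much from Pank3.

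MiR-107-3p held 1064 and 1095 mature reads, a share of 0.0215% and 0.0228% (mean 0.0222% ± 0.0009, SD, n = 2), at rank 187 of 471 in each replicate. MiR-378d held 144 and 105 mature reads, a share of 0.00291% and 0.00218% (mean 0.00255% ± 0.00052, SD, n = 2), at rank 299 by mean share. At this depth the 95% Wilson interval of miR-378d ran from 0.00248% to 0.00343% in replicate 1 and from 0.00180% to 0.00264% in replicate 2, so that the intervals overlapped. The intervals cover read-counting error only. The reads of miR-378d amounted to 0.140% and 0.105% of those of miR-378a-3p, which differs at 1 of the 21 bases compared. Whether some of them were miR-378a-3p reads with a misread base was not tested.

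In order, the levels ran from miR-378a-3p over miR-103-3p and miR-107-3p to miR-378d. For each pair of neighbours in this order, the lower replicate of the higher miRNA lay above the higher replicate of the lower one. With 2 values against 2, an exact permutation test cannot give a p below 0.333, so no test was made. MiR-378a-3p exceeded miR-103-3p 5.70-fold in replicate 1 and 6.03-fold in replicate 2 (5.86 ± 0.23, SD, n = 2). MiR-103-3p exceeded miR-107-3p, from which it differs by 1 base, 16.9-fold and 15.2-fold (16.04 ± 1.25, SD, n = 2). Only base 22 tells these 2 sequences apart, so a read that ends before it matches both. How such reads were counted is not given, and their part in the ratio was not tested. MiR-107-3p in turn exceeded miR-378d 7.39-fold and 10.4-fold.

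**Figure D1:**
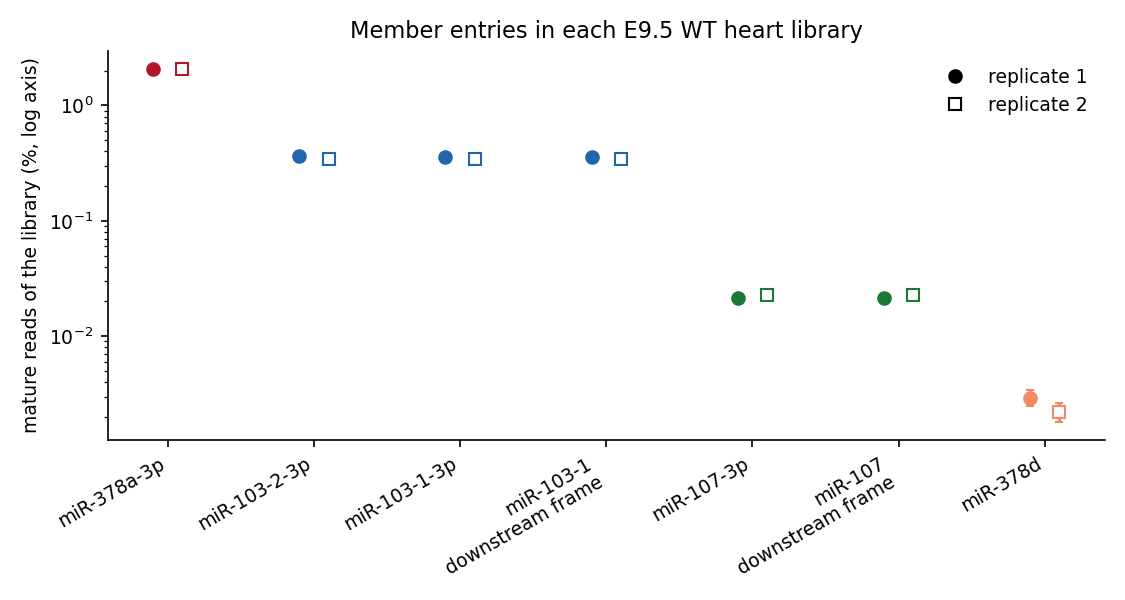
Share of mature reads (percent, log axis) of each of the 7 entries in replicate 1 (filled circles) and replicate 2 (open squares), with bars for the 95% Wilson interval, which is smaller than the symbol except for miR-378d. The 3 miR-103 entries lie at one level near 0.35% and both miR-107 entries at 0.022%. Entries with the same mature sequence can count the same reads.

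**Figure D2:**
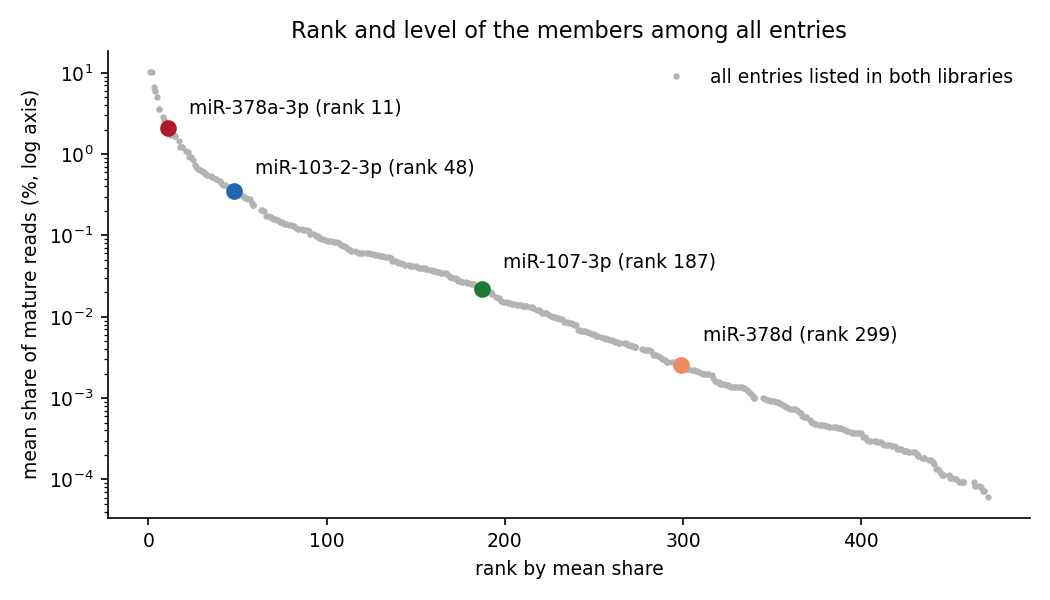
Mean share of mature reads (percent, log axis) against rank for the 471 entries listed in both replicates (grey), with 1 entry of each mature sequence of the set in colour. MiR-378a-3p lies among the highest entries at rank 11, and miR-378d at rank 299.

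Summed over all 7 entries the set held 3.21% of mature reads in replicate 1 and 3.16% in replicate 2, but 36604 and 33935 of these reads stood at 3 entries that repeat a sequence of the set already counted. Taking the highest entry of each of the 4 sequences gave 2.46% and 2.45% of the same totals, which still count every repeated sequence. MiR-378a-3p made up 84.2% and 84.9% of these reads. When the totals also counted each mature sequence once (3619523 and 3499739 reads), the set held 3.37% (mean of the replicates). The entries nearest in level, chosen by mean log2 share alone, were miR-92a-1-3p and miR-92a-2-3p for miR-378a-3p, and miR-409-3p and miR-30e-5p for miR-103-3p. For miR-107-3p they were miR-183-5p and miR-1193-3p, and for miR-378d they were miR-221-3p and miR-451a. The likeness covers levels over 2 libraries and no pattern of change.

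The libraries were compared entry by entry with an exact two-sided binomial test, adjusted by Benjamini-Hochberg over the 431 entries with at least 20 mature reads in sum, to ask whether a member differed by more than read counting allows. By totals of mature reads, 3 of the 7 entries passed an adjusted p of 0.05, beside 41.1% of all entries tested (177 of 431). In number the members did not stand apart under this scaling. All 3 were miR-103 entries with the same mature sequence, which makes them 1 observation. The log2 ratio of shares, replicate 2 over replicate 1, was -0.08 for miR-103-2-3p (adjusted p = 2.91e-06, exact binomial test) and -0.07 for miR-103-1-3p (adjusted p = 9.94e-06, same exact test). Both values, by totals of mature reads, are smaller in size than the median absolute log2 ratio of deeply read entries, 0.12. These were the 187 entries that reached 1000 mature reads in each library, of which 68.4% passed the test.

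The remaining members did not pass the test. The log2 ratio of miR-107-3p was 0.08 (adjusted p = 0.317, exact binomial test). That of miR-378d was -0.42 (adjusted p = 0.0619, same exact test), which became -0.47 (adjusted p = 0.0289, exact) with TMM scaling and -0.48 (adjusted p = 0.0242, exact) with DESeq2's size factors. MiR-378a-3p had a ratio of 0.0043 (adjusted p = 0.642, exact binomial test), which became -0.054 with TMM scaling (adjusted p = 1.64e-16, exact) and -0.064 with DESeq2's size factors (adjusted p = 2e-22, exact). Those scalings lower the log2 ratio of every entry alike, by a shift of -0.059 and -0.068, so the sign of a ratio this close to 0 follows the scaling. By totals of mature reads, 2 of the 187 deeply read entries had a smaller absolute ratio than miR-378a-3p. Among all calls, 67.2% were higher in replicate 2 by totals, against 48.3% with TMM and 44.3% with DESeq2's size factors. The calls numbered 178 of 431 with TMM and 176 of 431 with DESeq2's size factors. MiR-378a-3p, miR-378d and the miR-103 entries were among them in both settings. The 3 miR-103 entries kept their direction and their call under both scalings, with miR-103-2-3p at -0.14 (adjusted p = 1.61e-17, exact) for TMM and -0.15 (adjusted p = 6.32e-20, exact) for DESeq2's size factors, and miR-107-3p did not pass under either. The median absolute ratio of the deeply read entries was computed by totals alone, so miR-103 was not set beside it under these scalings.

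**Figure D3:**
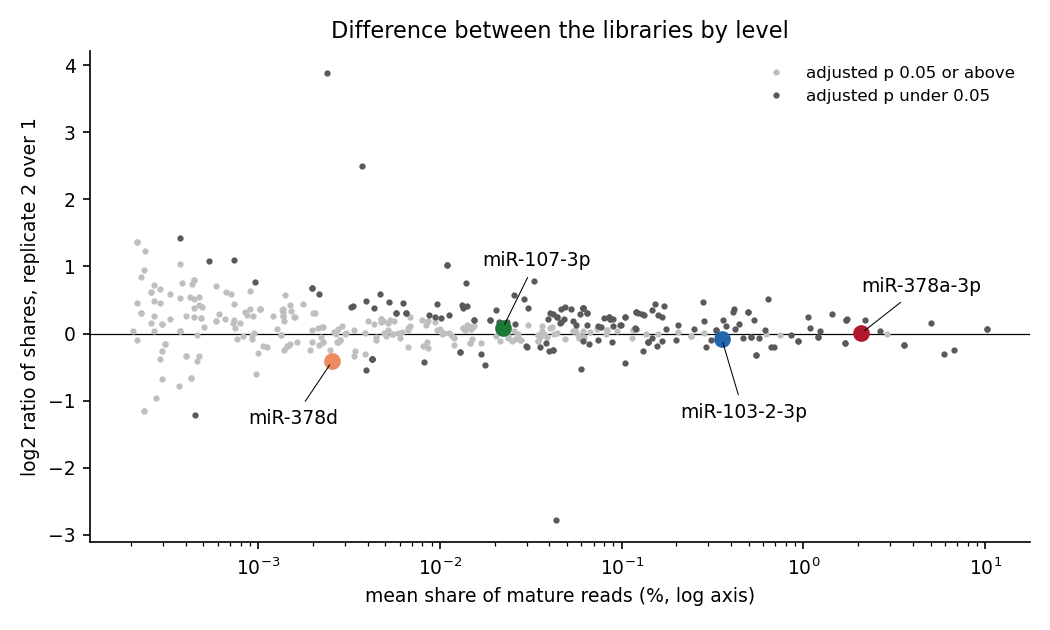
Log2 ratio of the share of mature reads, replicate 2 over replicate 1, against mean share (percent, log axis) for the 431 entries tested. Dark points passed an adjusted p of 0.05 in the exact binomial test, and the coloured points, 1 for each mature sequence of the set, lie near 0 except miR-378d at -0.42, the member with the fewest reads.

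The members were read from 1 arm nearly alone. In a hairpin the reads of the arm opposite the mature part are called star reads, and the tables give both. MiR-378a had 800 star reads in replicate 1 and 1004 in replicate 2, or 0.774% and 0.994% of mature and star reads together (95% Wilson intervals 0.722% to 0.829% and 0.934% to 1.06%). Its mature reads lay on the 3p arm, although the table named the entry by its 5p arm. The share of the 5p arm was 1.28 times as high in replicate 2, a log2 ratio of 0.36. Of 122 entries with at least 20 star reads in sum, 18 had a larger log2 ratio, and the quartiles were -0.13 and 0.25. The intervals of the replicates did not overlap, but no test of the spread between libraries was possible with 2 of them.

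On the opposite arm, miR-103-2 had 4 reads in each replicate and miR-103-1 had 1 in each. The star share of miR-103-2 was 0.0222% and 0.0241%, with 95% Wilson intervals of 0.0086% to 0.0571% and 0.0094% to 0.0619%. The mature reads in the star shares of both miR-103 entries can come from either gene, so these shares describe entries and not single genes. MiR-107 had 0 star reads, which allows a star share of up to 0.282% in replicate 1 and 0.274% in replicate 2, and miR-378d had 0 star reads, which at its depth allows up to 2.08% and 2.86%. Among the 185 entries that reached 1000 mature reads in each replicate on a constant arm, the median star share was 0.688%, and 33.5% had 0.1% or less. The miR-103 entries thus lay among that 33.5%, and 95 of the 185 entries had a lower star share than miR-378a. These 185 include entries that repeat a listed mature part on the opposite arm of an overlapping hairpin, as described below. Such repeats can have 0 star reads, as 1 entry each of miR-21a and miR-381 had, and they draw the reference towards low star shares. Values without them were not computed. The star arms of the Pank miRNAs are shown because, unlike the mature parts, they differ between both miR-103 genes, though at base 1 alone. They are RefSeq sequences with the positions that differ, 1 and 16, in capitals.
miR-103-1-5p: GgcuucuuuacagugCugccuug
miR-103-2-5p: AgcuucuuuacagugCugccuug
miR-107-5p: AgcuucuuuacagugUugccuug
From miR-103-1-5p to miR-103-2-5p the substitution is G1A, and from miR-103-2-5p to miR-107-5p it is C16U. The miR-103-1 hairpins in both replicates begin after base 1 of this arm, so a star read that lies within them can match both genes. The 4 and 1 star reads are also too few to compare the genes.

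**Figure D4:**
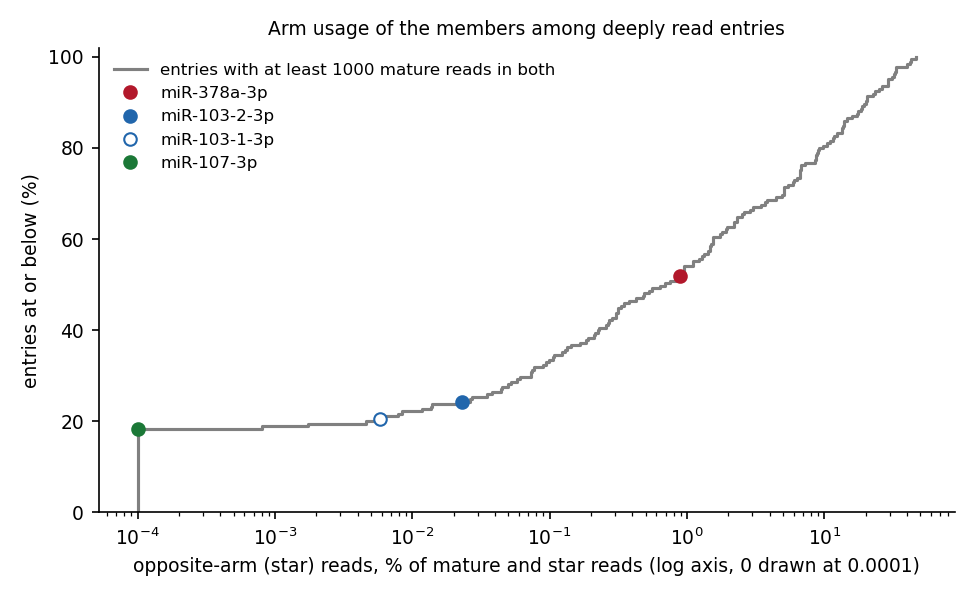
Share of entries (percent) at or below a given star share (percent of mature and star reads, log axis, 0 drawn at 0.0001), for the 185 entries that reached 1000 mature reads in each replicate, with the members among them as points. MiR-107 lies among the 34 entries at 0, the miR-103 entries lie at the low end, and miR-378a at 0.884% lies near the middle. Entries that repeat a mature part in an overlapping hairpin are included.

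Of the 3 miR-103 entries 1 was a further hairpin drawn around the same mature bases, and so was 1 of the 2 miR-107 entries. In the usual hairpin the mature part is the 3p arm, and in the further one, called the downstream frame here, it is the 5p arm of a hairpin made with bases downstream of the gene. The hairpins of miR-103-1 and miR-107 are printed with the mature part in capitals, to show that both frames hold the same mature bases at opposite ends.
miR-103-1 (chr11:35595915-35595971, plus strand): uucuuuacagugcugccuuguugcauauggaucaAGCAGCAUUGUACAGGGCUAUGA
miR-103-1 downstream frame (chr11:35595949-35596020, plus strand): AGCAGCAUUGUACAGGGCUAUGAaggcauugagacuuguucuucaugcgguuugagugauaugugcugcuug
miR-107 (chr19:34895190-34895251, minus strand): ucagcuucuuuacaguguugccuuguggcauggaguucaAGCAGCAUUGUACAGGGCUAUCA
miR-107 downstream frame (chr19:34895154-34895212, minus strand): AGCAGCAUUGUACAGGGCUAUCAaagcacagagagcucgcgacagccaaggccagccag
These are the precursor sequences of replicate 1, and in replicate 2 the miR-103-1 hairpin began at 35595918. Mature reads were equal in both frames of a locus, 17770 and 16420 for miR-103-1 and 1064 and 1095 for miR-107, so the reads were counted once in each frame.

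The frames differed in what miRDeep2 and folding gave them. The miRDeep2 score, a log-odds score, was 2.2 for miR-107 and -3.6 for its downstream frame. Only the latter failed the randfold test of a fold more stable than shuffled sequence. Minimum free energies, computed with RNAfold, were -21.9 kcal/mol for miR-107 and -11.1 kcal/mol for its downstream frame. For miR-103-1 the score was 1.9 against 1.3 downstream. The energy of its hairpin of replicate 1 was -20.7 against -22.7 kcal/mol downstream. Per base it was -0.363 against -0.315 kcal/mol, since the downstream frame is the longer of the 2. The shorter hairpin of replicate 2 had -18.7 kcal/mol, or -0.346 per base. Of the 23 mature bases, 15 and 12 were paired in the miR-103-1 hairpins of replicates 1 and 2, against 20 downstream. For miR-107 this was 18 against 13 downstream. Of the downstream frames, 37 of 72 bases for miR-103-1 and 23 of 59 for miR-107 lay outside the annotated miRNA gene, while the usual hairpins lay wholly inside it. Overlapping entries were found at 2 of the 5 member loci and at 57 of all 563 loci (10.1%), and in 55 of those 57 the entries had a single mature part at opposite arms. The scores of miR-103-2 and miR-378a, with 9100 and 52000 in replicate 1, were much higher than that of miR-103-1. Star reads in that library were 4 and 800 against 1, and their part in the score was not tested.

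**Figure D5:**
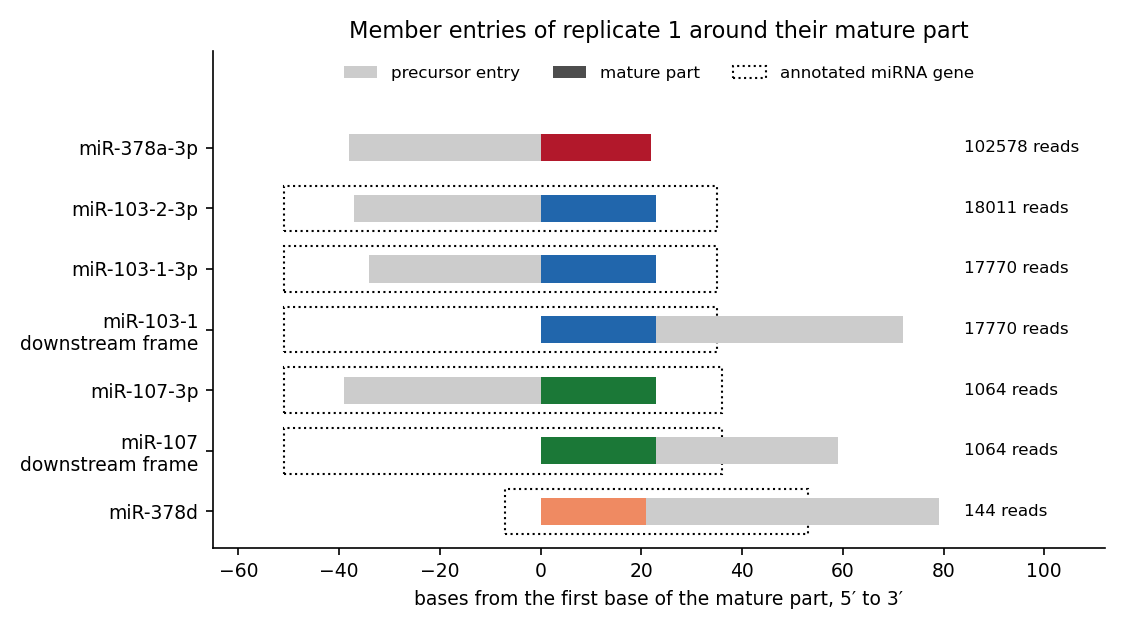
Extent of the 7 entries of replicate 1 in bases from the first base of the mature part, along the strand, with the mature part in colour, the precursor in grey and the annotated miRNA gene as a dotted outline. The downstream frames of miR-103-1 and miR-107 run out of the annotated gene at its 3′ end, and miR-378d has its mature part at the 5′ end of the entry.

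The seed of miR-103 and miR-107 holds part of the bases AGCAGC that also begin the miR-15/16 family, miRNAs known for repressing cell cycle genes. Of 10 relatives listed for this family (miR-15a, miR-15b, miR-16, miR-195a, miR-195b, miR-322, miR-497a, miR-497b, miR-503 and miR-1907), 7 had an arm with these bases among its first 8. The motif stood at bases 1 to 6 in miR-103-3p and miR-107-3p and at bases 2 to 7 in the relatives. The search was made on the mature strand alone, and of the 388 mature sequences listed in both replicates 6 held AGCAGC there, those of miR-103, miR-107, miR-16, miR-15b, miR-497a and miR-15a. The shift is shown with 3 relatives from the tables, with AGCAGC in capitals.
miR-103-3p: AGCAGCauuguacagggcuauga
miR-107-3p: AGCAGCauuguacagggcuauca
miR-16-5p: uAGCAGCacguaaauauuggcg
miR-503-5p: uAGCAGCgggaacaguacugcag
miR-322-5p: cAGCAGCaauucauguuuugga
On that arm, miR-503-5p had 3365 and 3005 reads, miR-16-5p 2152 and 2347, and miR-322-5p 1168 and 1008. For miR-503, miR-322 and miR-195a these were star reads, since the 3p arm was the more read. The 7 relatives summed to 0.153% ± 0.001 of mature reads (SD, n = 2), counting star reads over the same total. MiR-103-3p and miR-107-3p together held 0.377% ± 0.013, which was 2.50 times the sum of the relatives in replicate 1 and 2.42 times in replicate 2. A motif match is a description and says nothing about which targets were bound.

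All host introns named for the set were found in the annotation (GENCODE vM1, NCBIM37), each on the strand of the miRNA. MiR-103-1 lay in intron 5 of 6 of Pank3 (1740 bp), 705 bp from the exon before it. MiR-103-2 (chr2:131113802-131113861) lay in intron 5 of 6 of Pank2 (5801 bp), 468 bp from the exon before it. MiR-107 lay in intron 5 of 6 of Pank1 (7282 bp), 338 bp from the exon before it. The 3 Pank genes thus carry their miRNAs in the intron of the same number in the transcripts used, although the introns differ in length.

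MiR-33 is annotated in intron 16 of 18 of Srebf2 (1848 bp), 335 bp from the exon before it, and 0 listed entries overlapped it. MiR-378a lay in intron 1 of 11 of Ppargc1b, on the minus strand of chromosome 18 (61557491 to 61557550), 2393 bp from the exon before it. This intron of 76981 bp is the longest of these host introns, and the entry overlapped no miRNA gene of GENCODE vM1. MiR-378d (chr10:126147354-126147432, minus strand) lay outside protein-coding genes, 158053 bp from the nearest one, Xrcc6bp1, and 53 of its 79 bases overlapped an annotated miRNA gene with the name AC122210.1. Of the 5 member loci, 4 thus lay in sense introns, which follows from the host genes by which the set was named, against 222 of 563 loci (39.4%) in the whole series. The RNA of the host genes was not measured in these libraries.

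The set was placed among 17 miRNAs connected with cholesterol or lipid handling, of which 15 were listed in at least 1 replicate, with a sum of 11.7% ± 0.67 of mature reads (SD, n = 2). The highest were miR-148a (5.94%), miR-26a (1.71%), miR-370 (1.23%), miR-27b (0.687%) and miR-145a (0.625%) as mean shares of the highest entries. Of the 14 listed in both replicates, 1 lay above miR-378a-3p and 7 above miR-103-3p. MiR-122, the main miRNA of liver, held 0.0488% ± 0.0094 (SD, n = 2), above miR-107-3p.

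Markers of cell types were summed to check the tissue. The 5 heart muscle miRNAs (miR-1a, miR-133a, miR-208a, miR-208b and miR-499) held 11.6% ± 0.30 of mature reads, each sequence counted once, and all 5 were listed, miR-208a in replicate 1 alone. Endothelial miR-126a held 2.88% ± 0.02 and the smooth muscle pair miR-143 and miR-145a 7.38% ± 0.79. Erythroid miRNAs held 0.127% ± 0.019, white blood cell miRNAs 0.00537% ± 0.00021 and neural miRNAs 0.00427% ± 0.00080 (SD, n = 2 for each). The erythroid sum came mostly from miR-486a and miR-486b, with miR-486a at 0.122%. MiR-451a held 0.00262%, and miR-144 was listed in replicate 2 alone at 0.00152%, both below miR-107-3p. As an order of size, miR-378a-3p lay above the erythroid, white blood cell, neural and liver markers together, miR-107-3p lay below the erythroid and liver sums, and miR-378d lay below all of them. Which cells of the heart the members came from was not tested.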

How the data were processed

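Each of the 2 libraries holds the small RNA of E9.5 WT hearts, read from 1 end over 50 nt, and was prepared from Trizol-extracted RNA. After cleaning, the authors ran miRDeep2 on the reads against mm9 and deposited, for each known precursor, raw counts of all, mature, loop and star reads, without normalization, separately for each replicate. The deposited miRDeep2 score was used only as a description. Versions of miRDeep2 and miRBase, and the rule for reads with several places, are not given in the sources used here. A read can be counted at several entries, which raises sums over entries with the same sequence.

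Replicate 1 had 4942257 mature reads and replicate 2 had 4806179. The members and lists were chosen with earlier results of these data known. Positions were brought to coordinates that count from 1, and all 1091 precursor sequences were then identical to NCBIM37. Entries were paired between replicates when they overlapped by at least 50% on the same strand, and named by the arm with the reads. Shares are percent of mature reads, with mean ± SD over 2 replicates and 95% Wilson intervals. A count of 0 was given the limit of 3 reads. In sums over a list, a mature sequence shared by several names was counted once. The 2 libraries were compared entry by entry with the exact binomial test and p-values adjusted by Benjamini-Hochberg. These tests and intervals cover counting error only. The script for this test was tested on simulated data first. Named are all members and their hosts, list members as counts with at most 5 highest, and the 2 entries nearest in level to each member. The 3 relatives whose sequences are shown, and the AC122210.1 and Xrcc6bp1 genes, were chosen after their values were seen.

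Further settings took every mature sequence a single time, replaced mature reads by all reads, required 10 mature reads in each replicate, summed the miR-103 entries, dropped the minimum of 20 reads, left out each replicate, and scaled by TMM (edgeR 4.0.16) or DESeq2 1.42.0 size factors under R 4.3.3. Hairpins were folded with RNAfold 2.7.2. The remaining tools were pysam 0.24.0, scipy 1.17.1, pandas 2.3.3, numpy 2.4.6, matplotlib 3.10.9 and Python 3.11.15.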

Additional observations from a re-analysis of the deposited data

How the results depend on the processing

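Of 44 alternative values, those without a replicate not counted, 31 kept their direction and their side of the threshold, or moved by less than 1 SD. With each mature sequence counted once, the denominator is smaller, and the share rose to 2.85% for miR-378a-3p, 0.486% for miR-103-3p, 0.0303% for miR-107-3p, 0.00349% for miR-378d and 3.37% for their sum. With all reads of the precursor, miR-378a-3p moved to 2.04% and the sum of all 7 entries to 3.12%, and over entries that reached 10 mature reads in each replicate it moved to 2.09%. Summing the 3 miR-103 entries raised the ratio of miR-103-3p to miR-107-3p to 47.7. That sum can count the same reads at all 3 entries, while miR-107-3p was counted at 1 entry, so this value is not a level ratio. TMM and DESeq2's size factors shift the log2 ratio between replicates of every entry by -0.059 and -0.068, which alone took that of miR-378a-3p from 0.0043 to -0.054 and -0.064. By the same shift, that of miR-378d passed the threshold at -0.47 with TMM and -0.48 with DESeq2's size factors. The number of entries that differ ran from 133 of 328, each sequence tested once, to 184 with all reads, beside 177 of 431.

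Without either replicate in turn, the shares ran from 2.076% to 2.082% for miR-378a-3p and from 0.00218% to 0.00291% for miR-378d, and the ratio of miR-103-3p to miR-107-3p from 15.2 to 16.9. No paired analysis was possible because there is 1 group of samples. With 144 and 105 reads, miR-378d is the member whose value depth limits most, and the star reads of miR-103-1 and miR-103-2 are too few to compare these genes.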
